A study of Mus musculus with 2 samples.

Results

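The cytosolic ribosomal protein genes encode the proteins of the large (60S, Rpl) and small (40S, Rps) subunits of the ribosome. They were chosen by symbol, as Rpl or Rps followed by a digit together with Rplp0, Rplp1, Rplp2 and Rpsa, and without pseudogene symbols, kinases and paralogs such as Rpl22l1. This gave 78 of the 32285 genes counted, 47 of the large and 31 of the small subunit. They are described here in single cells of mouse retina, across cell classes defined by marker genes and across 2 libraries.

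Both libraries came from untreated C57BLKS mice aged 13 weeks. One genotype was Lepr wt/wt, also labelled m/m and called wild type here. The other was Lepr db/db, a mutant of the leptin receptor gene that is used as an obese model of type 2 diabetes. Each library pooled the retinas of 2 mice, and cells could not be traced to a mouse. Each genotype therefore has 1 library, no difference between genotypes has a replicate check, and differences between genotypes cannot be told apart from differences between dissociations or libraries. All intervals below are 95% intervals. Those of ratios and shares cover counting error only, and those of medians run over members, which are not replicates.

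Ribosomal proteins are among the most abundant transcripts of most cells. Their messenger RNAs characteristically begin with a C followed by a run of C and T bases, the terminal oligopyrimidine tract, through which TOR kinase signalling and the protein LARP1 control their translation and stability. Because a ribosome holds each core protein once, the genes are usually expressed together.

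The start regions of 7 members are printed because they carry this tract or belong to the members at the ends of the range described below. Each shows 40 bases before and 20 bases from the annotated start of RefSeq in GRCm38.p6, 5′ to 3′ on the strand of the gene. Capitals mark a C followed by at least 4 C or T bases that begins within 5 bases of the start. Where it begins away from the start itself, the base before it must not be C or T. Rps6 (chr4:86857348-86857407, minus strand), Rps18 (chr17:33955646-33955705, minus), Rpl15 (chr14:18270967-18271026, minus) and Rpl28 (chr7:4792925-4792984, plus) have it at the start itself. Rps2 (chr17:24720023-24720082, plus) had the highest ratio of db/db to wild type in rods, and Rpsa (chr9:120127726-120127785, plus) and Rps7 (chr12:28635934-28635993, minus) were among the lowest.
Rps6: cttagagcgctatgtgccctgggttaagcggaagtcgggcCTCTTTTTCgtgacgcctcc
Rps18: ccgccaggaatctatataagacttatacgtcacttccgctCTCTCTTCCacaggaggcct
Rpl15: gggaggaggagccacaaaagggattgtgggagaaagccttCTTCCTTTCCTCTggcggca
Rpl28: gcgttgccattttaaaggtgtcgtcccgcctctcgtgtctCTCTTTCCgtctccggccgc
Rps2: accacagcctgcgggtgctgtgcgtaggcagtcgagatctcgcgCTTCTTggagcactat
Rpsa: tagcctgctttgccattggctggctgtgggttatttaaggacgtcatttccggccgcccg
Rps7: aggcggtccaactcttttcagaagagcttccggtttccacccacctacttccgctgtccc

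RefSeq start windows were matched for 58 members, which have 68 windows. By the rule given for the capitals, the tract lay within 5 bases of the start in 22 of 68 windows, or 32.4%. It did so in 13.4% of 32851 windows of all genes. Longer runs of C and T that cross the start without beginning at it by that rule are not counted. The letters CCGGAAG, the core of sites for ETS factors, occurred on either strand in 36.8% of member windows of 250 bases before to 50 bases after the start and in 8.86% of all windows. AAGATGGC, the core of the YY1 site, occurred in 10.3% and 2.75%, and GGGCGG, the core of the SP1 site, in 61.8% and 35.7%. TATAAA lay 40 to 15 bases before the start in 0 member windows and in 1.99% of all windows. The motifs may overlap in a window, and a match describes letters only.

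The libraries held 35642274 UMIs (unique molecular identifiers, counted once per captured RNA molecule) over 10308 barcodes in wild type and 33742189 over 11083 barcodes in db/db. Cells kept had a median of 2314 and 2051 UMIs and of 3.35% and 2.98% mitochondrial UMIs. The libraries shared 26 cell barcodes. Cells were gated on marker genes, and rod photoreceptors made up 7731 wild-type and 9094 db/db cells. Cones numbered 404 and 396, bipolar cells 414 and 310, Muller glia 175 and 101, and microglia or macrophages 44 and 47. Amacrine cells (84 and 20), cells with retinal pigment epithelium markers (13 and 3) and erythroid cells (22 and 37) are given by level only, or only against rods. Each gated class carried its own markers because the gates required them, but rod markers were detected in all of the classes. Their median was 412 and 399 UMIs per 10000 in rods, 135 and 124 in cones, 74.2 and 58.8 in bipolar cells, 73.7 and 61.0 in Muller glia and 77.6 and 60.3 in microglia or macrophages, wild type before db/db.

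The members took a few percent of the UMIs of every neuronal and glial class, more in microglia or macrophages and far less in erythroid cells. In wild type and db/db they took 4.84% (4.83 to 4.85%) and 4.12% (4.11 to 4.13%) of rod UMIs. The shares were 4.54% and 4.47% in cones, 5.62% and 5.21% in bipolar cells, 3.31% and 3.52% in Muller glia, and 4.14% and 3.71% in amacrine cells. Microglia or macrophages, the immune cells of the retina, held 8.65% (8.52 to 8.80%) and 10.1% (10.0 to 10.3%). Erythroid cells, with a median of 9060 and 9405 erythroid-marker UMIs per 10000, held 0.941% and 0.536%. Between single cells of a class the spread was wide: the lower and upper quartiles of wild-type rods were 3.001 and 5.67%, and those of db/db rods 2.64 and 4.90%.

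**Figure D1:**
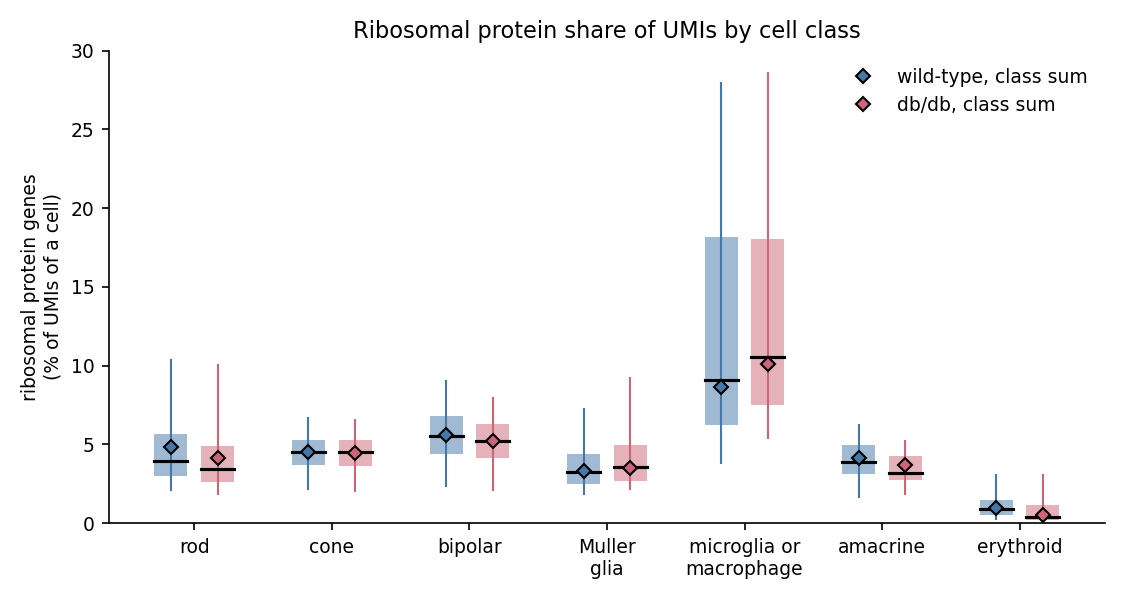
Share of UMIs from the 78 ribosomal protein genes, in percent, by cell class in wild type (blue) and db/db (red); boxes give the quartiles and lines the 5th to 95th percentiles over cells, black bars the median over cells and diamonds the share of the summed UMIs. Microglia or macrophages lie highest, at 8.65 and 10.1%, and erythroid cells lowest, at 0.941 and 0.536%.

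The abundance order of the members was nearly the same in both libraries. Over the 78 members, CPM (UMIs per 1000000 UMIs of the class) correlated at r = 0.993 between the libraries in rods, over genes that are not independent replicates. Among the abundant members in rods, Rpl9 was at 1441 CPM in wild type and 1183 CPM in db/db, Rplp1, part of the acidic stalk, at 1369 and 1142 CPM, and Rpl13 at 1132 and 921 CPM. Rpl36al was lowest, at 159 and 138 CPM. The 10 most abundant members held 23.7% and 23.1% of the members' UMIs in rods. These are counts of 3′ tags, 1 per captured molecule, and were not scaled by length.

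In rods the members were lower in db/db almost without exception. Of 78 members, 77 had a log2 ratio of db/db to wild type below 0, where 43.5% of the 11916 genes measured in rods lay below 0, and the median was -0.22 against 0.03 for all measured genes. The summed share was 0.852 times (0.850 to 0.854) the wild-type value. The interval lay below 0 for 76 members, where it did for 13.5% of all measured genes. A ratio of -0.25 or lower was reached by 28 members, where 8.67% of all genes reached it, and 0.25 or higher by 0 members, where 11.3% did. The count of 28 was 54 at a limit of 10% mitochondrial UMIs and 14 with wild type weighted to the mitochondrial bins of db/db. It was 6 after thinning to 1000 UMIs and 3 with equal weight per cell. Under the last 2 it was below 8.67% of the 78 members, but that share of all genes is from the reported setting. Large and small subunits had medians of -0.22 and -0.23, with 47 of 47 and 30 of 31 members below 0.

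Among the members with low ratios in rods, Rpsa, the small-subunit protein also known as the laminin receptor, had 700 CPM in wild type and 537 CPM in db/db, a log2 ratio of -0.38 (-0.41 to -0.35). Rps24 had 1134 and 899 CPM (-0.34) and Rps7 a log2 ratio of -0.33 (-0.36 to -0.30). Rps24 and Rplp0 shared no stretch of 90 bases in their last 300 transcript bases with any other annotated gene. Rps2 (ENSMUSG00000044533; GRCm38 chromosome 17, 24718116 to 24721929, plus strand) alone was higher, at 669 and 723 CPM (0.11, 0.08 to 0.14), and 56.4% of its end stretches occur in 24 other annotated genes. Rps2 is a small-subunit protein at the messenger RNA entry. Rpl21 (-0.04) and Rpl31 (-0.02) were nearest 0, and Rpl21 turned to 0.0327 when cells were thinned to 1000 UMIs. The 4 members on the X chromosome, Rpl10, Rpl36a, Rpl39 and Rps4x, had log2 ratios in rods of -0.28, -0.15, -0.16 and -0.33. Counts of 10 members may be too low or too high because another counted gene shares a 3′ stretch (Rpl10, Rpl17, Rpl21, Rpl35, Rpl36a, Rpl41, Rpl9, Rplp2, Rps18 and Rps27).

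**Figure D2:**
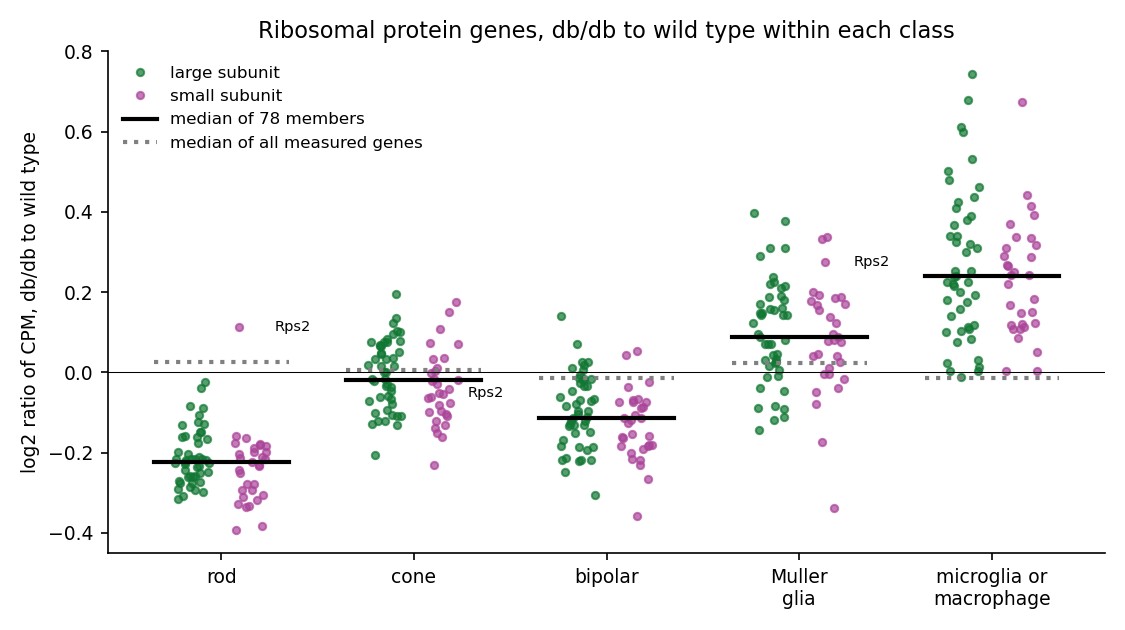
Log2 ratio of CPM, db/db to wild type, for each of 78 members (points; large subunit green, small subunit purple) in 5 cell classes; black bars are member medians and dotted bars medians of all measured genes. Rod points lie below 0 except Rps2, and microglia or macrophage points lie above 0 except 1.

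In the other 4 classes the members lay lower in bipolar cells, on both sides of 0 in cones, and higher in Muller glia and in microglia or macrophages. Bipolar cells, which relay photoreceptor signals, had 69 of 78 members below 0 against 52.1% of all measured genes, with a median of -0.11 and a summed share of 0.927 times wild type (0.917 to 0.937). Rps28 was lowest there, at -0.36 (-0.55 to -0.17), and 3 members were at -0.25 or lower, where 19.2% of all genes were. That count was 5 to 7 under 6 alternatives and 20 after thinning to 1000 UMIs, while the 19.2% is from the reported setting. In cones 44 of 78 lay below 0, where 49.1% of all genes did, and the median was -0.02. Rpl18 was at -0.21 (-0.36 to -0.05) in cones, and Rpl23a at 0.20 (0.021 to 0.37), which turned to -0.22 after thinning to 1000 UMIs. With free RNA subtracted, the cone median was 0.0594 and 22 members were lower.

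Muller glia, the radial glia of the retina, had 18 of 78 members below 0, where 47% of measured genes did, with a median of 0.09. In these cells 8 members were at 0.25 or higher, where 23.2% of all genes were, and 1 at -0.25 or lower, where 20.4% were. The number at 0.25 or higher was 5 with Leiden clusters, 22 after thinning to 1000 UMIs, 36 with equal weight per cell and 37 with free RNA subtracted. Over these settings it lay on both sides of the share of all genes in the reported setting, and members lower ran from 8 to 32. Rpl37 was highest at 0.40 (0.16 to 0.63) and turned to -0.0871 after thinning. Microglia or macrophages had 1 of 78 members below 0 against 51.5% of genes, with a median of 0.24, 36 at 0.25 or higher where 25.6% of genes were, and 0 at -0.25 or lower where 30.2% were. Rpl31 was at 0.74 (0.21 to 1.30) and Rpl7 at 0.61 (0.28 to 0.95), which turned to -0.13 after thinning. Of 78 members, 4 were lower in 1 class, 27 in 2, 37 in 3, 10 in 4 and 0 in all 5. Of the 756 genes measured in all 5 classes, 13.2% were lower in 1, 26.6% in 2, 31.6% in 3, 19.3% in 4 and 6.08% in 5. Rpl9, Rpl13 and Rps9 were among those lower in 4, and Rpl13a, Rpl27, Rpl35a and Rps23 were lower in rods alone. The difference between classes was not tested.

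The microglia or macrophage class held cells of unlike depth. Cells under 2000 UMIs had a member share of 19.5% in wild type (22 cells) and 21.5% in db/db (14 cells), and cells at or over 2000 UMIs had 6.73% (22 cells) and 9.47% (33 cells). Shallow cells were 22 of 44 in wild type and 14 of 47 in db/db. Malat1, which stays in the nucleus, was at 14079 and 11998 CPM in the shallow cells against 33038 and 28601 CPM in the deeper ones. The deeper db/db cells had 1638 CPM of Lyz2, a macrophage lysozyme, against 151 CPM in wild type. They had 5.09 CPM (1 UMI) of H2-Aa, an antigen-presenting gene, against 385 CPM (51 UMIs). Markers of the class went both ways in the deeper cells. In db/db Tmem119, P2ry12, Cx3cr1 and C1qa were at 605, 534, 1338 and 2941 CPM. In wild type they were at 355, 559, 1525 and 3753 CPM. These genes and the depth limit were chosen after their values were seen, and their part in the ratio was not tested. When cells with at least 1000 UMIs were thinned to 1000 UMIs, the median turned to -0.16 and 53 members were lower. No share of all genes is given for that setting. The thinning kept 34 wild-type and 35 db/db cells. It left out 10 and 12 cells under 1000 UMIs, whose member shares were 17.3% and 22.1%. Cells with 1000 to 2000 UMIs numbered 12 in wild type and 2 in db/db, so the set of cells changed with the thinning.

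Summed over all depths, rods with a higher mitochondrial share had a higher member share in both libraries. From cells under 1% to cells with 8 to 20% mitochondrial UMIs it ran through 2.99, 3.56, 4.41, 6.09 and 8.65% in wild type and 2.61, 2.99, 3.70, 5.34 and 8.18% in db/db. Within these 5 bins the log2 ratio was -0.19, -0.25, -0.25, -0.19 and -0.08, and 75, 76, 77, 76 and 70 of 78 members were lower, where 46.7, 46.3, 45.5, 45.4 and 53.0% of all measured genes were. The rise differed by depth. Wild-type rods with 500 to 1000 UMIs had 3.785% in the lowest bin and 4.05% in the highest, and db/db rods 3.66 and 3.58%. With 1000 to 2000 UMIs the values were 3.39 and 3.54% in wild type and 3.13 and 7.56% in db/db. With 2000 to 4000 UMIs they were 3.03 and 9.29% in wild type and 2.79 and 8.60% in db/db. In cones and bipolar cells the bins differed less. Cones with 2 to 4% and with 8 to 20% had 4.32 and 4.58% in wild type and 4.14 and 4.46% in db/db, and bipolar cells had 5.42 and 5.68% and 4.79 and 5.20%. In Muller glia the lowest and highest bins had 2.50 and 6.05% in wild type and 2.89 and 7.49% in db/db, with 20 and 12 cells in the highest. From the lowest to the highest bin of rods, the median of Malat1, a nuclear long non-coding RNA, went from 837 to 140 UMIs per 10000 in wild type and from 795 to 114 in db/db, and that of rod markers from 366 to 645 and from 365 to 653. In Muller glia Malat1 went from 1197 to 143 and from 1140 to 94.8. The part of these values in the member share was not tested.

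**Figure D3:**
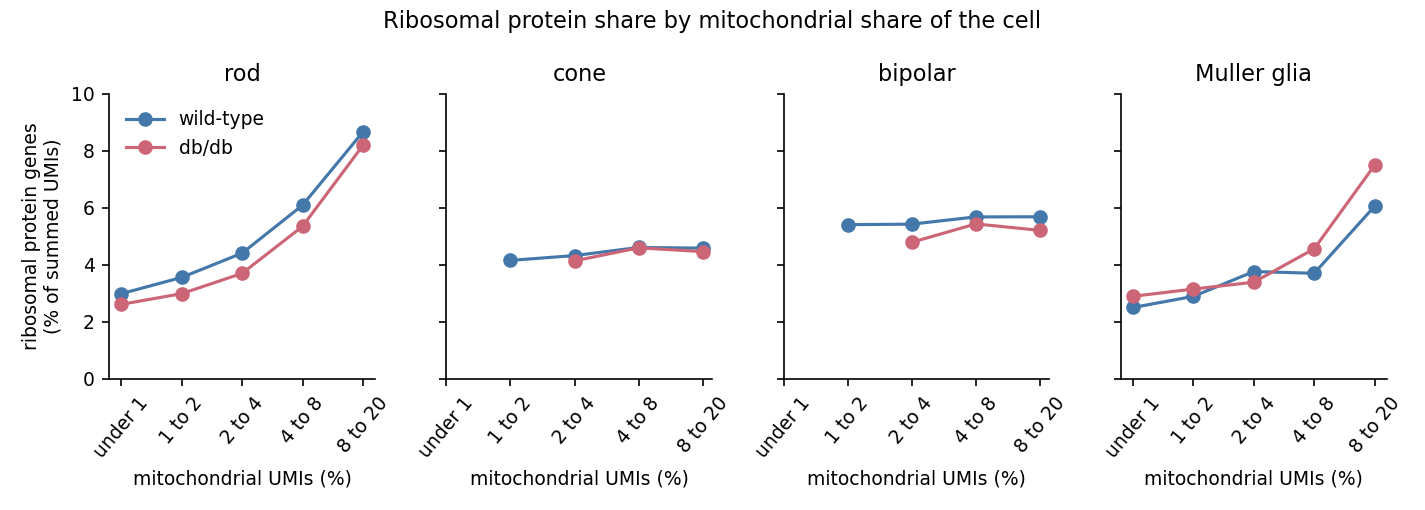
Share of summed UMIs from the ribosomal protein genes, in percent, in cells binned by their mitochondrial share, for 4 classes in wild type (blue) and db/db (red); bins with under 10 cells are left out. In rods the lowest and highest bins are at 2.99 and 8.65% in wild type and at 2.61 and 8.18% in db/db.

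The difference between these rods covered the family. Between rods with 8 to 20% and under 1% mitochondrial UMIs, with mitochondrial genes left out of the scaling, all 78 members were higher in both libraries, where 24.2% and 22.9% of all measured genes were, with medians of 1.69 and 1.82 in log2 against -0.53 and -0.56 for all measured genes. At least 1 was reached by 77 members in wild type, where 4.54% of genes reached it, and by 77 in db/db, where 4.23% did. Rps29 had the largest ratio among the members, with 501 and 2180 CPM in wild type (2.12) and 419 and 2050 CPM in db/db (2.29). Rps2 was the exception, at 0.57 and 0.37. Elongation factors had 0.92 and 1.28, and other transcripts with an oligopyrimidine tract 0.70 and 0.78. Mitochondrial ribosomal proteins had -0.14 and -0.22, ribosome biogenesis factors -0.54 and -0.54, and TOR pathway genes -0.64 and -0.77.

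The number of UMIs per cell divided the rods as well. In rods with 1000 to 2000 UMIs the direction turned, with summed shares of 3.48% in wild type and 4.14% in db/db, a log2 ratio of 0.25 (0.24 to 0.26), and 0 of 78 members lower, while 60.1% of all genes measured in that bin were lower. That bin held 2044 wild-type rods (26.4%) and 3552 db/db rods (39.1%). The median share over its cells was 3.32% in wild type and 3.27% in db/db. In the other 4 depth bins, from 500 to 1000 to 8000 or more, the ratios were -0.12, -0.25, -0.30 and -0.44. Splitting rods by both depth and mitochondrial share gave 24 boxes with at least 20 cells in each library. In 22 the share was lower in db/db, and in 20 the interval lay below 0. Both exceptions had 1000 to 2000 UMIs. With 4 to 8% mitochondrial UMIs, 373 wild-type cells had 3.51% and 582 db/db cells 4.79%. With 8 to 20%, 74 wild-type cells had 3.54% and 407 db/db cells 7.56%. Wild-type rods with 2000 to 4000 UMIs and the same mitochondrial share had 9.29%, and db/db rods 8.60%.

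**Figure D4:**
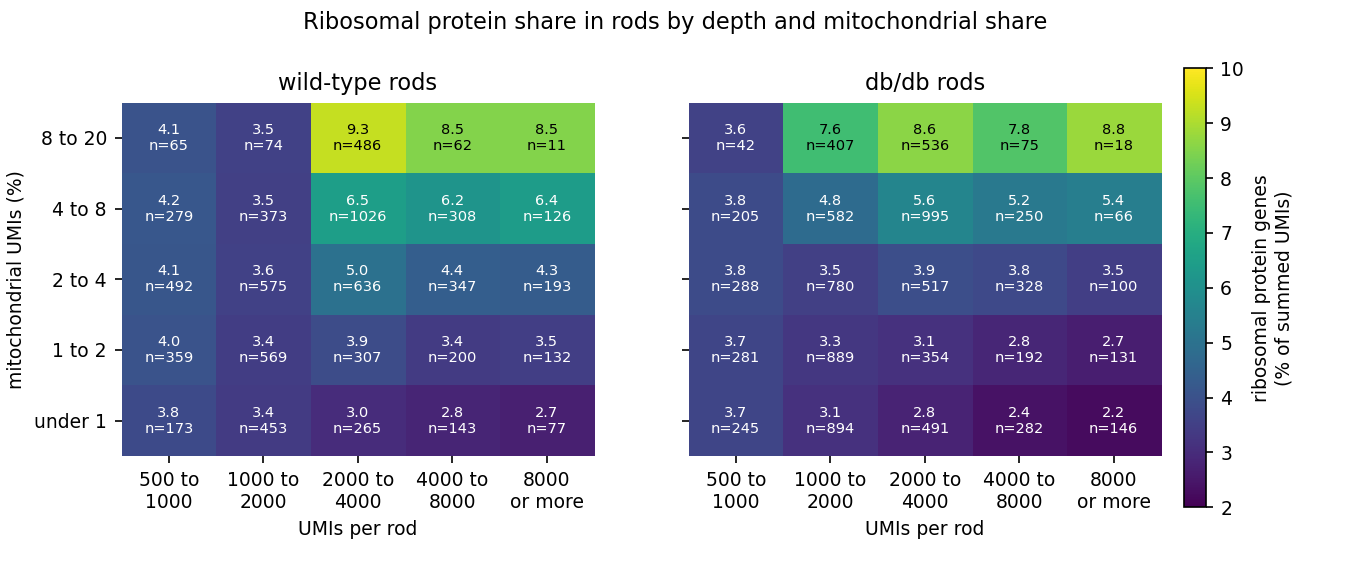
Share of summed UMIs from ribosomal protein genes in rods, in percent (color and upper number), by UMIs per cell and mitochondrial share, with the number of cells, in wild type (left) and db/db (right). The box of 1000 to 2000 UMIs and 8 to 20% holds 74 wild-type cells at 3.54% and 407 db/db cells at 7.56%.

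Among the other genes of translation, the elongation factors and other oligopyrimidine transcripts also lay lower in db/db rods, where 43.5% of all measured genes were lower. All 9 elongation genes measured were lower in db/db (median -0.21), among them Eef1a1, which carries aminoacyl-tRNA to the ribosome, at 850 and 720 CPM (-0.24). The interval lay below 0 for 7 of the 9, where it did for 13.5% of all measured genes. It crossed 0 for Eef2k (46 and 31 UMIs) and Eef1a2 (29 and 23 UMIs). All 9 other oligopyrimidine transcripts were lower (median -0.14), 8 with an interval below 0, led among the abundant ones by Tpt1 at 1635 and 1269 CPM (-0.37). Fau was at -0.22 and Rack1 at -0.18, 2 subunit genes outside the naming rule. Of 34 initiation factors 21 were lower (median -0.05), with Eif3i at -0.34 and Eif3f at -0.32. Of 35 biogenesis factors 29 were lower (-0.06), with Bop1 at -0.47. Of 78 mitochondrial ribosomal proteins 42 were lower (-0.01), and the counts of initiation factors and of these proteins lay nearer to that 43.5%. Of 8 snoRNA host genes, which also carry the tract, 1 was lower (0.08). Of 19 TOR pathway genes measured 8 were lower (0.01), and of 10 quality control genes 4 were lower (0.07). Members with the tract within 5 bases of the start, by the rule given for the capitals, had a rod median of -0.21 (22 members). The other matched members had -0.22 (36 members).

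Against rods within each library, among the 5 classes compared (cones, bipolar cells, Muller glia, amacrine cells and microglia or macrophages), the members' median was highest in microglia or macrophages and lowest in Muller glia. In these comparisons a gene was measured by its level in all kept cells, of which 75.6% and 83.0% were rods. Genes high in another class but rare in rods can therefore be missing from the shares of all genes. Microglia or macrophages had 75 members higher in both libraries, where 16.1% of 3057 measured genes were. Higher by at least 1 in log2 were 23 members, where 5.14% of genes were. That count was 43 after thinning to 1000 UMIs and 60 with equal weight per cell, while the 5.14% is from the reported setting. No member was lower by 1 in both, where 44.8% were. Rpl10 (ENSMUSG00000008682; chromosome X, 74270812 to 74273135, plus strand), a large-subunit protein at the tRNA sites, was at 312 and 258 CPM in rods and 1603 and 1689 CPM in these cells, log2 ratios of 2.36 (2.17 to 2.54) and 2.71 (2.55 to 2.87). All its end stretches occur in 10 other annotated genes, and 1 of these, Rpl10-ps3, is counted separately. Rplp0, the base of the stalk, had 2.21 and 2.56, and Rps9 1.69 and 2.02. Rps15 and Rpl10a were among those nearest to rods, at -0.19 and 0.37 and at 0.07 and 0.39.

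In bipolar cells 63 members were higher than in rods in both libraries, where 33.9% of genes were, and the medians were 0.25 and 0.37. By at least 1, 0 members were higher, where 8.96% of genes were. Rpl35a was highest, at 0.77 and 0.86, with 833 and 840 CPM against 489 and 461 CPM in rods. In Muller glia 59 members were lower in both libraries, where 61.3% of genes were, with medians of -0.52 and -0.21, and 0 were higher by 1, where 6.6% were. Lower by 1 in both were 0 members, where 16.2% of genes were. With equal weight per cell the db/db median in Muller glia turned to 0.0432. In cones the median was -0.07 in wild type, which turned to 0.0286 with Leiden clusters, and 0.13 in db/db, and 16 members were lower in both libraries, where 52.3% were, and 27 higher, where 32.3% were. By at least 1, 0 were higher in cones, where 5.51% were, and 0 lower, where 5.72% were. Amacrine cells had medians of -0.22 and -0.13 and 44 lower in both, where 57.2% were, and 0 higher by 1, where 5.57% were. Medians of all measured genes against rods, wild type before db/db, were -0.38 and -0.38 in Muller glia and -0.34 and -0.33 in amacrine cells. They were -0.14 and -0.15 in cones, -0.15 and -0.18 in bipolar cells, and -1.08 and -1.16 in microglia or macrophages. By the mean of both libraries Rps2 was lowest in cones (-0.54 and -0.70), bipolar cells (-0.51 and -0.73) and Muller glia (-0.998 and -0.834). In wild type alone Rps19 was lower in cones (-0.79), Rpl10a in bipolar cells (-0.69) and Rpsa in Muller glia (-1.08). Over 10 class and library points, Rpl10a (r = 0.720) and Rps2 (0.757) were among the members that followed the median member least, a description over points that share a library.

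**Figure D5:**
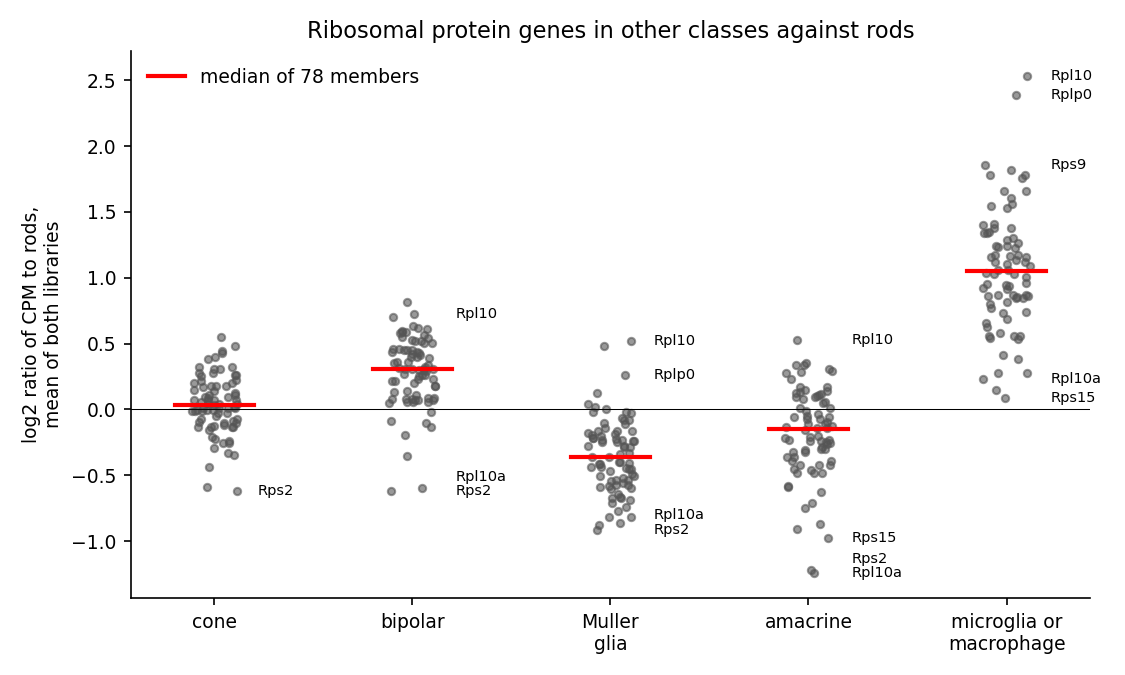
Log2 ratio of CPM to rods, mean of both libraries, for each of 78 members (points) in 5 other classes, with member medians in red and 6 members of the ends named beside them. Rpl10 is among the 3 highest in bipolar cells, Muller glia, amacrine cells and microglia or macrophages, and Rps2 is the lowest in cones, bipolar cells and Muller glia.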

How the data were processed

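The authors deposited raw UMI counts for each gene and barcode, which cellranger 6.0.1 wrote per the file headers. The build mm10 comes from the submitters' processing notes. How cells were called, which annotation was used and whether counting used strand is not given in the sources used here. Cells with at least 200 genes and at most 20% mitochondrial UMIs were kept, 10230 in wild type and 10963 in db/db. The labels give about 6000 cells loaded and 3000 targeted per library, fewer than these barcodes, and whether some barcodes are not whole cells was not tested. Scrublet in scanpy 1.11.5 called 0 cells in either library and so did not work, and doublets stayed in. UMIs were summed per class and library and scaled to 1000000 (CPM), with exact conditional binomial intervals at 95%, and a count of 0 set to 3. Genes with at least 50 UMIs over both libraries were measured. For a class against rods, at least 10 UMIs had to be expected in each library. The expectation came from the gene's share of UMIs in all kept cells, most of which were rods. No test was made, because each genotype has 1 library. The interval method was checked on simulated data.

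The members, lists and comparisons were chosen with earlier results of these data known. Several choices were made after values had been seen. They are the gate limits on markers, the minimum of 40 cells per library in place of 50 for a compared class, the 10 expected UMIs, the rule that names clusters, the transcript used for annotation, the split of microglia or macrophages at 2000 UMIs, and the restriction of retinal pigment epithelium and erythroid cells to levels. For classes against rods the design named the median and the count past 1. A ratio of the summed share had been computed first, and both are given. Gates required markers of the class (at least 5 for cones and Muller glia, 4 for bipolar cells and microglia or macrophages, 3 for amacrine cells) and under 250 rod-marker UMIs per 10000. Cells that met the markers of more than 1 class, or of 1 class but not that limit, numbered 389 and 233. These cells, and 954 and 722 unassigned cells, entered no class. Of 800 cones, 235 lay within 20% of the rod-marker limit. Named members were the 4 with most UMIs, the 4 lowest and 4 highest per class by the interval bound nearest 0, the 3 at each end against rods, those on X, and the 3 least like the median. Some genes that this rule covers are not reported here. Pairs with near-identical proteins were not determined. Alternatives were Leiden clusters, doublet scores, mitochondrial and gene limits, thinning to 1000 UMIs, equal weight per cell, free RNA subtraction, scaling and UMI minimums, and 2 added after seeing the data (without shared barcodes, and wild type weighted to the mitochondrial bins of db/db). Thinning left out cells under 1000 UMIs, so that 6363 wild-type and 8033 db/db rods remained. Positions and shared stretches of 90 bases come from GENCODE M21 of GRCm38, and start windows from RefSeq.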

Additional observations from a re-analysis of the deposited data

Results flagged for a closer look

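In 2 classes the members' median log2 ratio of db/db to wild type had the opposite sign to that in rods, where it was -0.22. It was 0.0879 in Muller glia and 0.239 in microglia or macrophages. In Muller glia the log2 ratio of the share was 0.21 under 1%, 0.12 at 1 to 2% and -0.15 at 2 to 4% mitochondrial UMIs. Members lower numbered 18 of 71, 23 of 78 and 57 of 78, where 46.8, 49.1 and 50.3% of all measured genes were. Higher bins held 16 and 12 db/db cells and have no ratio. With Leiden clusters the Muller glia median was 0.0314 and its order-based interval over members (-0.012 to 0.072) crossed 0. Members are not replicates, so such an interval gives no check on the genotype difference. The difference between classes was not tested, since each genotype has 1 library. The value in microglia or macrophages rests on 44 and 47 cells and turned to -0.16 after thinning to 1000 UMIs.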

How the results depend on the processing

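No paired analysis was possible because each genotype has 1 library, whose number only names it, and no replicate could be left out for the same reason. In rods the median log2 ratio of db/db to wild type lay between -0.28 and -0.15 over the reported setting and 13 alternatives, with 74 to 77 of 78 members lower, and the counts past 0.25 moved. The values below left the interval of the reported value, which is wider for a median (over members) than for a share (counting error), or are counts that moved by over 1.5 times. The cause was not tested for any of them, and log2 ratios are given. No share of all genes is given under the alternatives, so the counts have none of the same setting beside them. With Leiden clusters, the median ratio of db/db to wild type was -0.0556 in cones and 0.0314 in Muller glia. The ratio of the share, db/db to wild type, was -0.24 in rods, -0.0634 in cones and 0.0215 in Muller glia. The number of members lower in db/db was 32 in Muller glia and 3 in microglia or macrophages. The number at -0.25 or lower was 6 in bipolar cells and 2 in Muller glia. The number at 0.25 or higher was 5 in Muller glia. The log2 ratio of the share to that in rods was 0.0166 in wild-type cones (opposite sign), 0.19 in db/db cones, 0.17 in wild-type bipolar cells, 0.296 in db/db bipolar cells, -0.49 in wild-type Muller glia, 0.87 in wild-type microglia or macrophages and 1.34 in db/db microglia or macrophages. The median ratio to rods was 0.0286 in wild-type cones (opposite sign). Single members of opposite sign were Rps19 at -0.0999 in cones. Without the top 8% by doublet score, the ratio of the share, db/db to wild type, was -0.22 in rods and -0.0406 in cones. A ratio of -0.25 or lower was counted for 1 in cones and 5 in bipolar cells. Against rods, the log2 ratio of the share was -0.0728 in wild-type cones, 0.32 in db/db bipolar cells, -0.56 in wild-type Muller glia and -0.26 in db/db Muller glia. At 10% mitochondrial UMIs, the median ratio of db/db to wild type was -0.28 in rods. The ratio of the share, db/db to wild type, was -0.29 in rods and 0.0556 in Muller glia. The number of members lower in db/db was 2 in microglia or macrophages. The number at -0.25 or lower was 54 in rods and 1 in cones. The log2 ratio of the share to that in rods was -0.0435 in wild-type cones, 0.22 in db/db cones, 0.26 in wild-type bipolar cells, 0.45 in db/db bipolar cells, -0.53 in wild-type Muller glia, -0.18 in db/db Muller glia, 0.88 in wild-type microglia or macrophages and 1.4 in db/db microglia or macrophages. The median ratio to rods was 0.23 in db/db cones and 0.49 in db/db bipolar cells. Without a mitochondrial limit, the ratio of the share, db/db to wild type, was 0.12 in Muller glia. A ratio of -0.25 or lower was counted for 5 in bipolar cells. Against rods, the log2 ratio of the share was 0.101 in db/db cones, 0.32 in db/db bipolar cells and -0.19 in db/db Muller glia. At 500 genes, the number of members lower in db/db was 5 in microglia or macrophages. The log2 ratio of the share to that in rods was 0.77 in wild-type microglia or macrophages and 1.22 in db/db microglia or macrophages. Thinned to 1000 UMIs, the median ratio of db/db to wild type was -0.16 in rods, -0.15 in bipolar cells and -0.16 in microglia or macrophages (opposite sign). The ratio of the share, db/db to wild type, was -0.16 in rods, -0.15 in bipolar cells and -0.14 in microglia or macrophages (opposite sign). The number of members lower in db/db was 53 in microglia or macrophages. A ratio of -0.25 or lower was counted for 6 in rods, 7 in cones, 20 in bipolar cells, 4 in Muller glia and 27 in microglia or macrophages. A ratio of 0.25 or higher was counted for 1 in cones, 1 in bipolar cells, 22 in Muller glia and 7 in microglia or macrophages. Against rods, the log2 ratio of the share was 0.0361 in db/db cones, 0.23 in wild-type bipolar cells, 0.25 in db/db bipolar cells, -0.48 in wild-type Muller glia, -0.198 in db/db Muller glia, 1.23 in wild-type microglia or macrophages and 1.25 in db/db microglia or macrophages. The median ratio to rods was 0.0312 in db/db cones and 1.24 in wild-type microglia or macrophages. The number higher than in rods by 1 was 43 in microglia or macrophages. Single members of opposite sign were Rpl21 at 0.0327 in rods, Rpl23a at -0.22 in cones, Rps19 at -0.0809 in cones, Rpl37 at -0.0871 in Muller glia, Rpl7 at -0.13 in microglia or macrophages and Rpl41 at -0.00529 in microglia or macrophages. With equal weight per cell, the median ratio of db/db to wild type was -0.15 in rods, 0.22 in Muller glia and 0.0811 in microglia or macrophages. The ratio of the share, db/db to wild type, was -0.15 in rods, 0.203 in Muller glia and 0.0897 in microglia or macrophages. The number of members lower in db/db was 9 in Muller glia and 26 in microglia or macrophages. The number at -0.25 or lower was 3 in rods, 5 in bipolar cells and 4 in microglia or macrophages. The number at 0.25 or higher was 36 in Muller glia and 21 in microglia or macrophages. The log2 ratio of the share to that in rods was -0.0676 in wild-type cones, 0.0485 in db/db cones, 0.24 in wild-type bipolar cells, 0.29 in db/db bipolar cells, -0.36 in wild-type Muller glia, -0.00538 in db/db Muller glia, 1.4 in wild-type microglia or macrophages and 1.64 in db/db microglia or macrophages. The median ratio to rods was 0.0625 in db/db cones, -0.35 in wild-type Muller glia, 0.0432 in db/db Muller glia (opposite sign), 1.42 in wild-type microglia or macrophages and 1.59 in db/db microglia or macrophages. The number higher than in rods by 1 was 60 in microglia or macrophages. Single members of opposite sign were Rpl21 at 0.0409 in rods. With wild type weighted to db/db mitochondrial bins, the median ratio of db/db to wild type was -0.18 in rods and 0.0831 in microglia or macrophages. The number of members lower in db/db was 22 in microglia or macrophages. A ratio of -0.25 or lower was counted for 14 in rods and 5 in bipolar cells. A ratio of 0.25 or higher was counted for 14 in microglia or macrophages. With free RNA subtracted, the median ratio of db/db to wild type was 0.0594 in cones and 0.24 in Muller glia. The ratio of the share, db/db to wild type, was -0.24 in rods, 0.072 in cones (opposite sign), 0.22 in Muller glia and 0.28 in microglia or macrophages. The number of members lower in db/db was 22 in cones, 8 in Muller glia and 0 in microglia or macrophages. The number at -0.25 or lower was 7 in bipolar cells. The number at 0.25 or higher was 6 in cones and 37 in Muller glia. The log2 ratio of the share to that in rods was -0.17 in wild-type cones, 0.14 in db/db cones, 0.26 in wild-type bipolar cells, 0.404 in db/db bipolar cells, -0.77 in wild-type Muller glia, -0.31 in db/db Muller glia, 0.93 in wild-type microglia or macrophages and 1.45 in db/db microglia or macrophages. The median ratio to rods was -0.14 in wild-type cones, 0.45 in db/db bipolar cells, -0.73 in wild-type Muller glia and 1.44 in db/db microglia or macrophages. Scaled without mitochondrial genes, against rods, the log2 ratio of the share was -0.0528 in wild-type cones, 0.17 in db/db cones, 0.25 in wild-type bipolar cells and 0.39 in db/db bipolar cells. Of 440 values of 40 named member ratios under alternatives, 411 kept their sign and 29 did not.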

Other observations

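Of 4 measured paralogs left out by the naming rule, 1 was lower in db/db rods and 1 had an interval above 0. Rpl7l1 was at 0.11 (0.01 to 0.21), Rps27l at 0.01 (-0.07 to 0.10) and Rpl22l1, at 251 and 249.8 CPM, at -0.0048. Tpt1 was lower in 4 of 5 classes, at -0.37 in rods, -0.14 in cones, -0.29 in bipolar cells and -0.15 in Muller glia, and at 0.11 in microglia or macrophages.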
